A study of Rattus norvegicus with 20 samples.

Results

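Apolipoprotein E (Apoe), clusterin (Clu, also called apolipoprotein J) and the cholesterol transporters Abca1 and Abcg1 were followed in injured rat brain. They are 4 of the 750 endogenous genes of a probe panel and were picked by name for their shared role, with earlier results of these data known. All 4 were abundant enough to be tested (4 of 4, among the 193 of 750 genes whose counts averaged 20 or more).

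In the brain, astrocytes and microglia secrete apolipoprotein E and clusterin, which carry cholesterol and other lipids between cells in lipoprotein particles. ABCA1 moves cholesterol and phospholipid from the cell membrane onto lipid-poor apolipoproteins, and ABCG1 passes cholesterol on to particles that already carry lipid. Genes of this export system, Abca1, Abcg1 and Apoe among them, are known targets of the liver X receptors, nuclear receptors that sense oxidised cholesterol. After brain injury, phagocytes take up myelin and membrane debris, and its cholesterol has to leave these cells again. Clusterin is also an extracellular chaperone that is known to rise after many kinds of tissue damage.

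RNA came from 10 female rats after a controlled cortical impact, in which a piston bruises the exposed cortex on one side. Each animal gave 1 sample of the injured (ipsilateral) and 1 of the opposite (contralateral) hemisphere, so the 20 libraries form 10 pairs and there is no uninjured animal among them. Some animals had received L-myc immortalised human neural stem cells through the nose and others vehicle, and the labels do not say which, so both hemisphere groups mix the 2 treatments in unknown parts. Strain, age, time after injury and the part of the hemisphere taken are not given in the sources used here.

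RNA was counted on the NanoString nCounter, which counts barcoded probes bound to RNA without amplification. The total over 770 target probes ran from 38015 to 150613 in ipsilateral and from 34454 to 319964 in contralateral libraries. Raw counts were divided by a library factor from 17 housekeeping genes, and the result is called a scaled count. The lowest raw count of any of the 4 genes in any library was 81, against a highest count of 18 for a negative control probe. Counting error (the square root of the count) was at most 1.73% for Apoe and Clu. For Abcg1 it reached 11.1%, and on average 6.86% ipsilaterally and 6.92% contralaterally (root mean square), beside coefficients of variation between animals of 11.9% and 11.2%. None of the accessions listed for the 770 target probes is a rat RefSeq transcript (0 of 770), and those listed for the 4 genes are mouse transcripts. How well each mouse probe binds rat RNA is unknown, so a low count can mean few transcripts or a poorly binding probe. A level is therefore compared only for 1 gene between libraries. Shares of the counts, ratios of genes and the minimum count for testing describe probe counts, not relative amounts of different transcripts. Neuronal markers were abundant in both hemispheres (Nefl, a neurofilament subunit, averaged 576 ± 158 ipsilateral and 698 ± 120 contralateral scaled counts, SD, n = 10 each), as a brain label calls for. Ipsilateral libraries were counted in one set of lanes and contralateral libraries in another, so set and hemisphere cannot be told apart.

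On the injured side Abca1, Apoe and Clu were higher, by 2.29-fold, 2.03-fold and 1.78-fold, whereas Abcg1 was 1.17-fold higher, close to the typical gene of the panel. The comparison asks which transcripts differ between the injured and the opposite side of the same brains. All 4 genes passed the test with housekeeping scaling (4 of 4 higher, edgeR quasi-likelihood test with the animal as a block, adjusted p under 0.05), against 47.2% of the 193 tested genes called higher. The median log2 fold change of the 4 was 0.93, against 0.30 for all tested genes. A share this high in the background means that the calls alone say little about these genes. Their sizes differ more, as 24 of the tested genes had a higher log2 fold change than Abca1 and 107 had a higher one than Abcg1. As the tissue was measured in bulk, more cells of a type and more RNA per cell cannot be told apart.

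**Figure D1:**
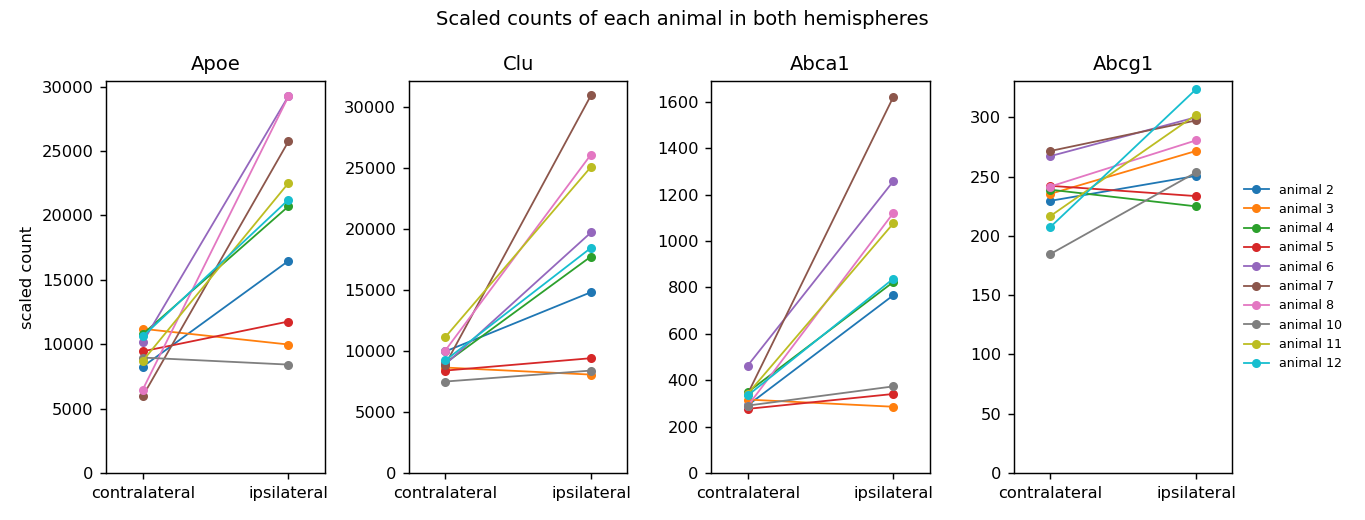
Scaled counts (vertical axis, from 0) of Apoe, Clu, Abca1 and Abcg1 in the contralateral and the ipsilateral hemisphere, with 1 line for each of the 10 animals. Lines of Apoe, Clu and Abca1 rise in 7 animals, least for Clu in animal 2 (1.49-fold). In animals 3, 5 and 10 they change between 0.89-fold and 1.28-fold. Abcg1 is at most 1.56-fold higher in any animal.

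Apoe, the main lipid carrier made in the brain, had 8412 scaled counts at the lowest, 20961 at the median and 29267 at the highest in ipsilateral libraries. Contralateral libraries ran from 5959 over a median of 9199 to 11191. Of the 10 injured hemispheres, 8 lay above the highest opposite hemisphere, and the other 2 (animals 3 and 10, with 9971 and 8412) lay within the contralateral range, so the groups overlap. No tested gene had groups without overlap (0%). The log2 fold change was 1.02 ± 0.24 (SE, n = 10 pairs, edgeR adjusted p = 0.00441). Within animals the difference was positive in 8 of 10, and 54.9% of tested genes were higher in at least 8 of 10. It was largest in animals 8 and 7 (2.18 and 2.11 on the log2 scale), which also had the lowest contralateral counts of Apoe (6470 and 5959). In animal 8 the raw count was lower on the injured side (8440 against 13762), where the library totals were 38015 and 163170. Its ratio of Apoe to Abcg1 counts, which needs no scaling, was 104 on the injured and 26.8 on the opposite side.

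Clu had 8069, 18115 and 30985 scaled counts (lowest, median and highest) in the injured and 7498, 8957 and 11140 in the opposite hemispheres. The injured hemisphere lay above the whole contralateral range in 7 animals, and within it in animals 3, 5 and 10 (8069, 9413 and 8398). The log2 fold change was 0.83 ± 0.18 (SE, n = 10 pairs, edgeR adjusted p = 0.0033), with a higher value in 9 of 10 animals, as in 30.1% of tested genes at 9 or more. Before scaling, the count of Clu was higher ipsilaterally in 6 of 10 animals, fewer than for Apoe and Abca1 (8 of 10 each). Contralateral Clu was more even than contralateral Apoe, with a coefficient of variation of 10.98% against 19.6% for Apoe.

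Abca1 ran from 285 over a median of 831 to 1623 scaled counts ipsilaterally, and from 276 over 325 to 463 contralaterally. Again 7 injured hemispheres lay above all opposite ones, and those of animals 3, 5 and 10 (285, 341 and 373) lay among them. Its log2 fold change of 1.20 ± 0.22 (SE, n = 10 pairs, edgeR adjusted p = 0.00116) was the largest of the 4 genes, with a higher value in 9 of 10 animals. The exception was animal 3, at -0.15 on the log2 scale. The contralateral library of animal 6 stood above its group at 463 scaled counts.

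Abca1 and Apoe are both textbook targets of the liver X receptors and rose together in animals 2, 4, 6, 7, 8, 11 and 12, so the sequence at their starts is shown. Clu, not named above as a target, rose in the same animals. Abcg1, which is also a target, differed there by only -0.087 to 0.64 on the log2 scale. Control by these receptors was not tested. The RefSeq promoter table (GRCr8, 250 bases before to 50 after a start) matched 2 of the 4 genes, with 1 window for Abca1 and 3 for Apoe. Windows were searched on both strands for the liver X receptor element, in which AGGTCA stands 2 times in the same direction with 4 free letters between. The best match of Abca1 has 9 of the 12 fixed letters, as have 21.9% of 33469 rat windows or better, and lies 70 to 55 bases before the start on the opposite strand. In the window of Abca1 (chr5:72596424-72596723, minus strand, 5′ to 3′ along the gene) capitals mark this match:
Abca1: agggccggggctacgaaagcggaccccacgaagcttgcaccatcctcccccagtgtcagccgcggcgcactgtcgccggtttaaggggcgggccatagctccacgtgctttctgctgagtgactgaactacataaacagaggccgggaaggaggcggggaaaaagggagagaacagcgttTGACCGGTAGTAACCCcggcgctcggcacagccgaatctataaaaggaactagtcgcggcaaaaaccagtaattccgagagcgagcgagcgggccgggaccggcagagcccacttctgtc

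The best match in each of the 3 Apoe windows has 8 of 12 fixed letters, which 77.6% of all windows reach. In the 2 windows nearer the gene, 4 and 3 sites tied at this score, and only the first of each was compared with Abca1. These shared 10 and 6 of 16 letters with its site. The window farthest upstream (chr1:88485767-88486066, minus strand) has 1 best match, which resembles that of Abca1. Read along the element, with capitals for letters equal to those of Abca1 at the same place, both sites are:
Abca1: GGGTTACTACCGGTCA
Apoe: GGGTTACTAagGGcCA
They share 13 of 16 letters, and 36 of 33469 windows (0.108%) hold a 16-letter stretch that shares as many with the Abca1 site. This likeness was looked for after the values were known and is a description of letters, not evidence of binding. The heat shock element (GAA, TTC and GAA with 2 free letters between neighbours), searched because chaperones such as clusterin can be under heat shock control, had at best 6 of 9 fixed letters in the windows of Abca1 and Apoe, as have 95.8% of all windows. No window was available for Clu, so the search says nothing about the gene of clusterin itself.

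Abcg1 behaved differently from the other 3 genes. It had 225, 276 and 324 scaled counts (lowest, median and highest) in the injured and 185, 237 and 272 in the opposite hemispheres. The ranges overlap broadly, with 4 of 10 injured hemispheres inside the contralateral range. The log2 fold change was 0.23 ± 0.085 (SE, n = 10 pairs, edgeR adjusted p = 0.0368), higher in 8 of 10 animals, and its raw count was higher in 5 of 10. This call ended when any of animals 2, 7, 8, 10, 11 or 12 was left out (log2 fold change from 0.18 to 0.24, edgeR adjusted p up to 0.0887), and with all 20 housekeeping genes (0.12, edgeR adjusted p = 0.379). The sign turned under TMM scaling, at -0.051 (edgeR adjusted p = 0.66), and under median centring, which equalises the median tested gene of the libraries, at -0.22 (edgeR adjusted p = 0.0925). Animals 10, 11 and 12 had the largest differences of Abcg1 (0.46, 0.48 and 0.64 on the log2 scale), and animals 4 and 5 lay just below 0 (-0.087 and -0.052).

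**Figure D2:**
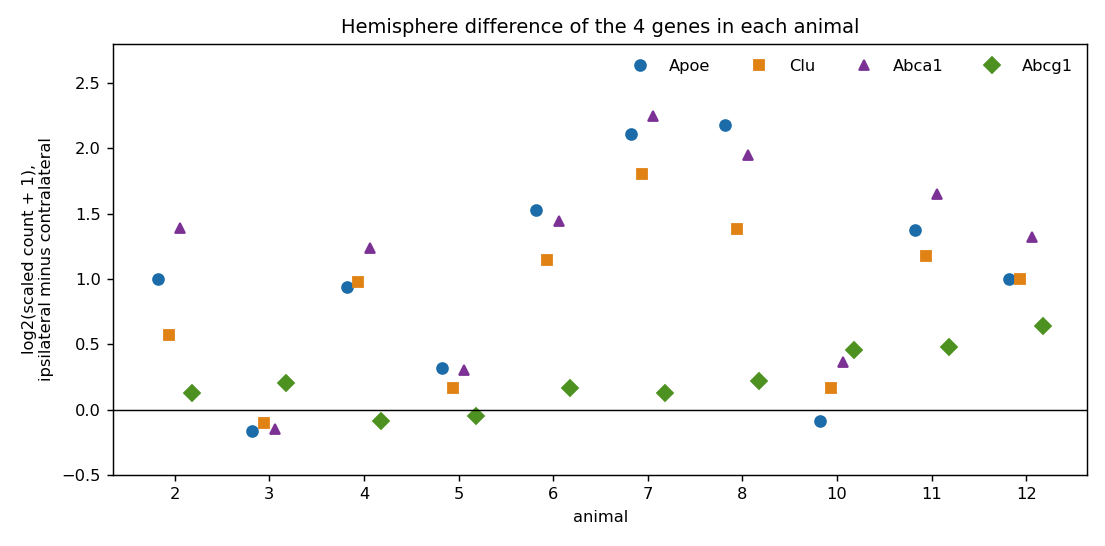
Difference between hemispheres in log2(scaled count + 1) (vertical axis, ipsilateral minus contralateral) of Apoe, Clu, Abca1 and Abcg1 in each of the 10 animals (horizontal axis). Apoe, Clu and Abca1 sit together within most animals, from near 0 in animal 3 to about 2 in animals 7 and 8, and Abcg1 stays between -0.087 and 0.64.

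How large the differences were depended on the scaling. Their order and their distance from the typical gene hardly moved, which follows from the arithmetic. A change of library factors shifts all genes of an animal nearly alike, so this is no separate support. Over 7 scalings, 6 of them meant to equalise RNA input and 1 by the positive control probes, the log2 fold change of Abca1 ran from 0.27 to 1.26 and that of Apoe from 0.11 to 1.09. That of Clu ran from -0.080 to 0.90 and that of Abcg1 from -0.67 to 0.29. The lowest value of each came from the positive controls, which are added in fixed amount. These controls themselves differed between hemispheres, with geometric means of 544 to 715 ipsilaterally and 342 to 540 contralaterally, higher in 10 of 10 animals by 0.55 ± 0.26 on the log2 scale (SD, n = 10). Dividing by them lowers every gene by that amount, whereas the raw counts of Apoe differed by 0.65 ± 0.88 and those of Abca1 by 0.81 ± 1.01 (SD, n = 10). The offset goes with the set of lanes, so set and hemisphere cannot be told apart in it either. With these 1.55% of tested genes were called higher and 3.11% lower, and none of the 4 genes was among them (0 of 4, edgeR adjusted p from 0.289 to 0.882). Under the other 6 scalings Apoe, Clu and Abca1 were called higher each time, against 30.1% of tested genes under TMM. They were called also with median centring, where 20.7% of tested genes were (edgeR adjusted p of 0.0196, 0.0297 and 0.00221). Measured from the median of all tested genes, the log2 fold change was 0.88 to 0.90 for Abca1, 0.717 to 0.724 for Apoe, 0.53 for Clu and -0.074 to -0.056 for Abcg1 over all 7 scalings.

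**Figure D3:**
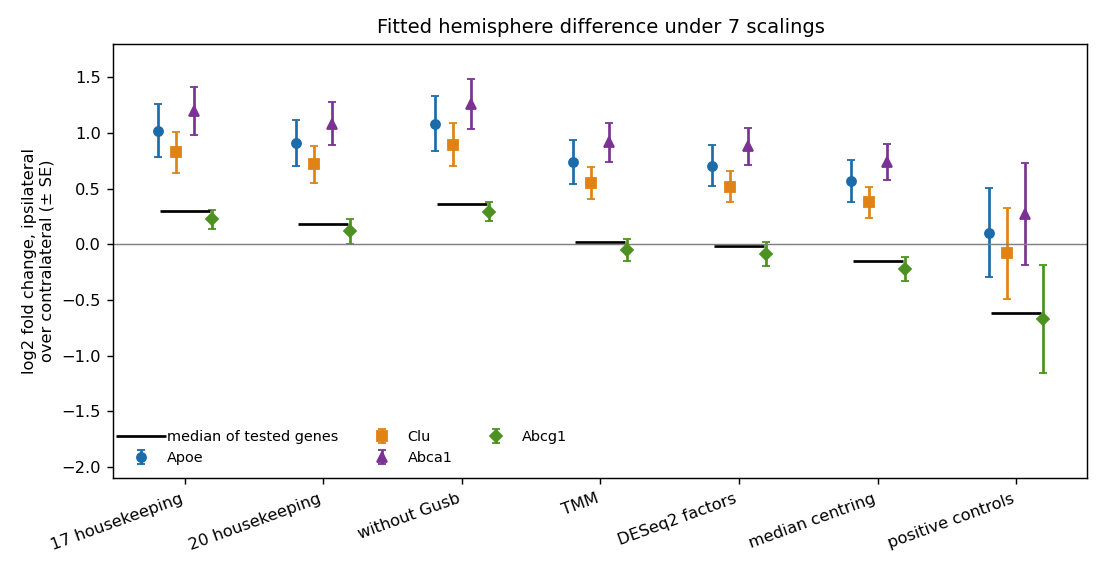
Log2 fold change between hemispheres with its SE (vertical axis, edgeR, n = 10 pairs) of Apoe, Clu, Abca1 and Abcg1 under 7 scalings (horizontal axis). Horizontal bars give the median of the 193 tested genes, which moves from 0.37 without Gusb to -0.61 with the positive controls. The 4 genes move with it, as a change of scaling shifts all genes nearly alike.

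The ratio of 2 genes within a library is free of any scaling factor, so the 6 pairs of the 4 genes were compared between hemispheres with an exact two-sided sign-flip permutation test over the 10 animals, adjusted over the 6 pairs (Benjamini-Hochberg). The ratio of Abca1 to Abcg1 counts had a median of 1.40 (1.14 to 1.73) in contralateral and of 3.31 (1.05 to 5.46) in ipsilateral libraries. In 7 animals the injured side exceeded every opposite hemisphere, while animals 3, 5 and 10 stood at 1.05, 1.46 and 1.47. The hemisphere difference of Abca1 thus exceeded that of Abcg1 by 0.95 ± 0.79 on the log2 scale (SD, n = 10), in 8 of 10 animals (exact permutation adjusted p = 0.0352).

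Apoe exceeded Abcg1 by 0.79 ± 0.86 (SD, n = 10, exact permutation adjusted p = 0.0381), with a median count ratio of 70.1 ipsilaterally against 39.6 contralaterally. Clu exceeded Abcg1 by 0.60 ± 0.64 (SD, n = 10, exact permutation adjusted p = 0.0381), with ratios of 62.5 against 39.2. Each held in 8 of 10 animals. These 3 contrasts with Abcg1 are uneven between animals, and each call was lost when single animals were left out. For Abca1 these were animals 2, 4, 6, 7, 11 and 12, for Clu also animal 8, and for Apoe also animals 5 and 8 (exact permutation adjusted p up to 0.0703, 0.0762 and 0.0762, and log2 values from 0.82 to 0.98, 0.48 to 0.63 and 0.66 to 0.84).

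The most regular contrast was between Clu and Abca1. The count ratio of Clu to Abca1 fell from a median of 27.5 contralaterally (19.2 to 34.7) to 22.3 ipsilaterally (15.7 to 28.3), and the 2 ranges overlap. Within animals it was lower on the injured side in 9 of 10, by -0.35 ± 0.24 on the log2 scale (SD, n = 10, exact permutation adjusted p = 0.0234). It passed with any single animal left out (adjusted p at most 0.0469). Animals 5 and 10, in which neither gene rose above the contralateral range, also had a lower ratio (-0.14 and -0.20), and animal 3 was the exception at 0.049. Between Apoe and Clu the difference was 0.19 ± 0.30 (SD, n = 10, exact permutation adjusted p = 0.0723) and between Apoe and Abca1 -0.16 ± 0.23 (SD, n = 10, exact permutation adjusted p = 0.0703). Neither passed, which does not show that they changed alike. The first passed without animal 10 (0.24, exact permutation adjusted p = 0.0328) and the second without animal 8 (-0.20, exact permutation adjusted p = 0.0469).

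**Figure D4:**
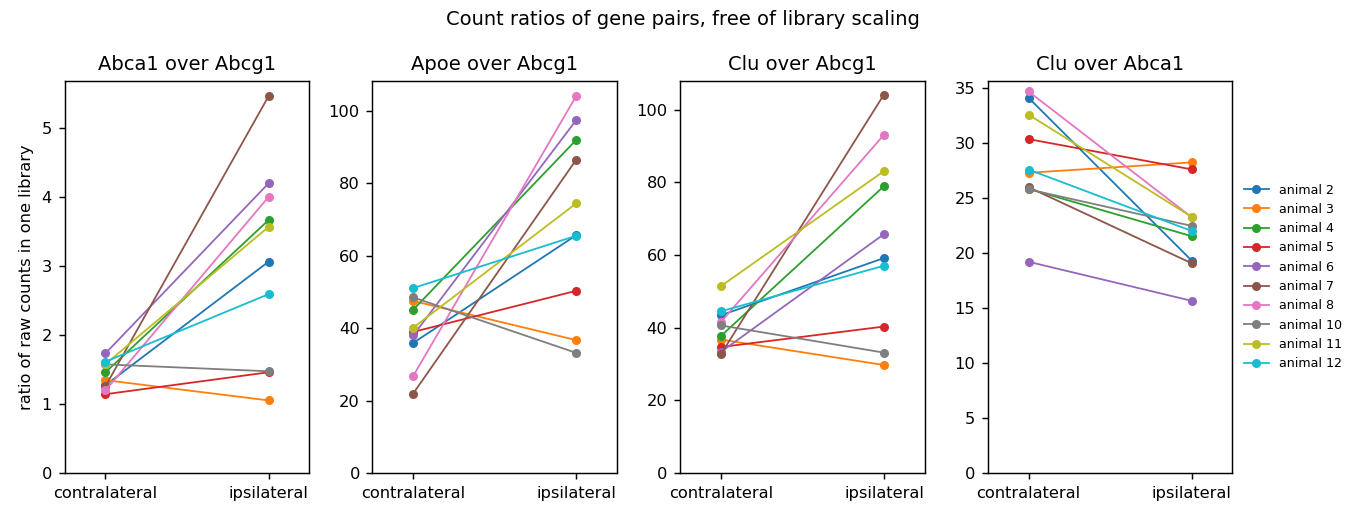
Ratio of raw counts of 2 genes within a library (vertical axis, from 0) in both hemispheres, with 1 line per animal. The ratio of Abca1, Apoe or Clu to Abcg1 rises above every contralateral value in 7 of 10 animals, and the ratio of Clu to Abca1 falls in 9 of 10.

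Apoe, Clu and Abca1 also varied more between animals on the injured side, as much of the panel did. The SD of log2(scaled count + 1) of Clu was 0.70 ipsilaterally against 0.16 contralaterally, that of Abca1 0.86 against 0.21 and that of Apoe 0.65 against 0.31, whereas Abcg1 had 0.17 on both sides. An exact two-sided sign-flip permutation test over the 10 animals gave unadjusted p of 0.00195 (the smallest it can give), 0.00586, 0.0312 and 0.867. Of the tested genes 31.1% had a larger ipsilateral spread at an unadjusted p under 0.05, and none passed after adjustment over the 193 genes (0 of 193, 0%). The adjusted values were 0.0665 for Clu and Abca1, 0.123 for Apoe and 0.93 for Abcg1 (exact permutation, Benjamini-Hochberg). The median tested gene had an SD of 0.41 ipsilaterally and 0.25 contralaterally. Below the ipsilateral SD of Abcg1 lay 8.81% of tested genes, and below that of Abca1 lay 89.1%.

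Shares of the endogenous counts need no scaling factor. Apoe took 19.0% ± 4.4 of the endogenous counts ipsilaterally and 12.5% ± 2.1 contralaterally (SD, n = 10 each), higher in 8 of 10 animals by a mean of 6.51 percentage points (exact sign-flip permutation test, adjusted over the 193 tested genes, p = 0.0314). Of the tested genes 20.2% were called with a higher share in this way. Clu took 17.3% ± 4.7 against 12.8% ± 1.4 (SD, n = 10 each, exact permutation adjusted p = 0.0296), also higher in 8 of 10. Together they ranged from 23.2% to 44.7% of ipsilateral and from 22.1% to 27.0% of contralateral counts. Abca1 took 0.81% ± 0.29 against 0.46% ± 0.068 (SD, n = 10 each, exact permutation adjusted p = 0.0243). Leaving out animal 2, 4, 6, 7, 8, 11 or 12 ended the calls of Apoe and Clu (exact permutation adjusted p up to 0.0628 and 0.0591), while Abca1 passed with any single animal left out (up to 0.0486). The share of Abcg1 was 0.29% ± 0.054 against 0.33% ± 0.042 (SD, n = 10 each, exact permutation adjusted p = 0.223), lower in 7 of 10 animals. A share moves with the other genes of the panel, as the lower share of Abcg1 beside its higher scaled count shows.

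Genes with the most similar hemisphere differences were found by the mean absolute distance between per-animal log2 differences over the 10 animals. Nearest to Apoe were Cd63, a tetraspanin of late endosomes and exosomes (distance 0.20), the lysosomal protease Ctsh (0.24) and the kinase subunit Pik3cg of leukocytes (0.26), against a median distance of 0.88 for the other tested genes. Nearest to Abca1 were again Cd63 (0.21) and Ctsh (0.25), then the Fc receptor gamma chain Fcer1g (0.26), against a median of 0.98. Near Clu were Ifih1, a sensor of double-stranded RNA (0.22), and the transcription factor Maf (0.23), with a median of 0.71. The genes nearest to Abcg1 were the signalling adaptor Traf6 (0.14), the lipoprotein receptor Lrp1 (0.21) and the repressor Bcl6 (0.22), with a median of 0.51. Both genes of a comparison carry the same library factors, so these cancel in the distance, apart from the added 1. The distances were not tested.

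Of a list of 67 other genes of lipid transport and its surroundings, 18 were on the panel and 8 were abundant enough to test, of which 6 rose and 0 fell with housekeeping scaling (median log2 fold change 0.58, against 0.30 for all tested genes, of which 47.2% were called higher). Under TMM 4 were called higher and 1 lower, and with median centring 3 higher (Lgals3, Cd68 and Mrc1) and 2 lower (App and Lrp1). No other apolipoprotein or lipase of the list, no other exporter and no enzyme of cholesterol synthesis or conversion was on the panel (0 of 9, 0 of 4 and 0 of 8), so the export pathway is seen through the 4 genes alone. Among receptors, Lrp1, which takes up particles with apolipoprotein E, averaged 471 ± 60 against 405 ± 30 scaled counts (SD, n = 10 animals), a log2 fold change of 0.21 ± 0.075 (SE, edgeR adjusted p = 0.0316). Like Abcg1, it lay below the median gene, and its sign turned under TMM (-0.070) and median centring (-0.24, where it was called lower, edgeR adjusted p = 0.0191). Mertk, a receptor for dying cells, stood at 0.29 ± 0.15 (SE, edgeR adjusted p = 0.121). The mannose receptor Mrc1 rose by 1.33 ± 0.33 (SE, edgeR adjusted p = 0.00524). Its contralateral mean was 15.9 scaled counts, so it passed the minimum of 20 through the injured side. Trem2, a microglial receptor that binds lipids and apolipoproteins, averaged 13.5 raw counts. This lay above the negative control mean of 5.28 but under the minimum, so Trem2 was not tested. Nor were Cd36 (6.0), Msr1 (2.70), Cd14 (6.55), Cd163 (3.50), Axl (2.55), Tlr4 (4.10) and the nuclear receptor Pparg (4.15), which lay near or under that mean.

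The list for endosomes and lysosomes, where engulfed lipid is broken down, had 4 tested genes. With housekeeping scaling 4 of 4 were called higher, beside 47.2% of all tested genes. With median centring 2 of 4 were, Lgals3 and Cd68, beside 20.7%. Lgals3 and Cd68 ranked 1 and 3 of the tested genes by log2 fold change, and the list was chosen with earlier results known. Cd68 is also on the microglia and macrophage list, and its contralateral mean was 18.8 scaled counts. The tally is thus no separate evidence on endosomes and lysosomes. The log2 fold change was 3.59 ± 0.48 (SE) for the lectin Lgals3, 2.65 ± 0.37 for the phagocyte protein Cd68, 0.66 ± 0.11 for the protease Ctss and 0.50 ± 0.13 for the membrane protein Lamp2 (edgeR adjusted p at most 0.00724). Of these, Lamp2 lost its call under TMM (0.22, edgeR adjusted p = 0.111), and both Lamp2 and Ctss lost theirs with median centring (0.053 and 0.21, edgeR adjusted p of 0.696 and 0.0717) and turned sign with the positive controls (-0.40 and -0.23). App, the amyloid precursor and a partner of both apolipoproteins in amyloid research, stood at -0.084 ± 0.082 (SE, edgeR adjusted p = 0.387) with housekeeping scaling and was called lower under TMM (-0.36, edgeR adjusted p = 0.00841) and median centring (-0.53, edgeR adjusted p = 0.00165), as were 24.4% and 36.8% of tested genes. Lamp1, a lysosomal membrane protein, averaged fewer raw counts (2.95) than the negative controls, so its level cannot be judged with this probe.

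**Figure D5:**
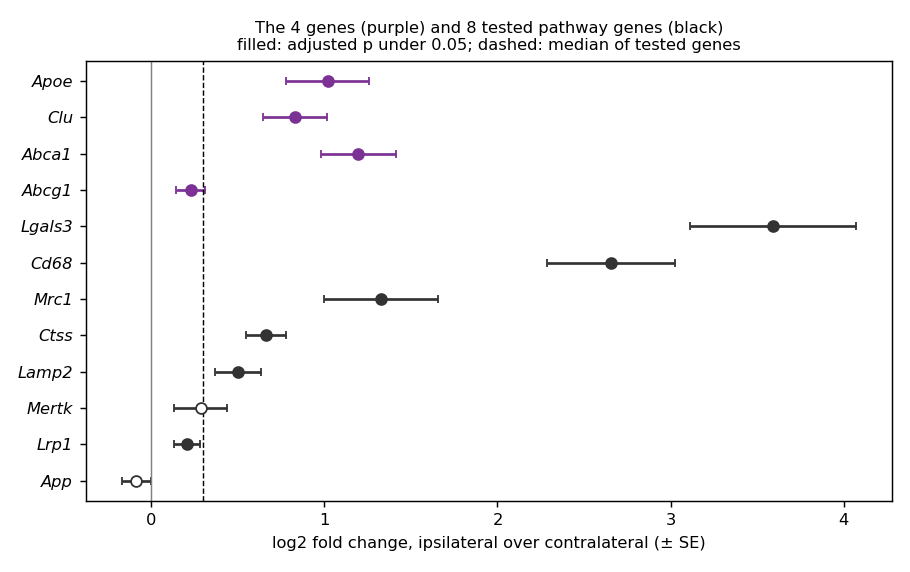
Log2 fold change between hemispheres with its SE (horizontal axis, edgeR, n = 10 pairs, housekeeping scaling) of the 4 genes and of the 8 tested genes of the pathway list. Filled points passed at adjusted p under 0.05, and the dashed line is the median of the 193 tested genes at 0.30, next to which Abcg1, Lrp1 and Mertk lie.

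Markers of several cell types moved with Apoe, Clu and Abca1, and their part in these differences was not tested. Of 17 microglia and macrophage markers 12 were on the panel and 4 were tested, and with housekeeping scaling these 4 rose (Cd68, Ptprc, Fcer1g and Mrc1). The summed scaled count of the 12 ranged from 138 to 923 ipsilaterally and from 132 to 183 contralaterally. It was lowest ipsilaterally in animals 3, 5 and 10 (138, 167 and 167), the same animals in which Clu and Abca1 stayed within the contralateral range, and highest in animal 7 (923), which also had the highest Clu and Abca1. Defining microglial markers were at background, with mean raw counts of 2.10 for Itgam, 3.45 for Cx3cr1, 5.20 for Csf1r and 5.50 for C1qa. With mouse probes on rat RNA, such counts do not show that these transcripts were absent. Of 8 astrocyte markers 2 were on the panel, S100b at background (2.40) and Vim, which rose and which other cells also make, with a sum of 17.8 to 346 ipsilaterally and 15.8 to 33.6 contralaterally. Of 12 listed neuronal markers 4 were on the panel, Nefl, Cyfip2, Mpped1 and Egr1 (sum of 1821 to 4751 against 3634 to 5158). All 4 were called lower with housekeeping scaling, beside 10.4% of tested genes. The list was chosen with earlier results known, and Cyfip2, Mpped1 and Egr1 ranked 190, 191 and 193 of 193 by log2 fold change. Their fall is thus no separate evidence on neurons. The 4 tested of 6 endothelial markers were called higher (177 to 454 against 180 to 319), beside 47.2% of tested genes. Animals 3, 5 and 10 also had the lowest ipsilateral sums of astrocyte and endothelial markers and the highest of neuronal markers. Their low microglia and macrophage sums are thus not particular to that list. Of the endothelial markers, Cdh5 alone stayed called with median centring (0.53, edgeR adjusted p = 0.0112), where Tek turned sign (-0.079), and all 4 lay below 0 with the positive controls. No oligodendrocyte marker was on the panel (0 of 6), and 0 of 5 neutrophil markers were abundant enough to test.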

How the data were processed

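The deposited matrix gives a whole-number count for each probe in 20 libraries. Per the labels' protocols it came from nSolver after normalization to controls, but its values do not have that form (positive controls differ 2.09-fold and totals 9.29-fold between libraries), so the deposited counts were treated as raw. A second deposited table holds the same counts under another animal number in 20 of 20 columns, with the same pairs. Animal numbers follow the matrix headers. Counts were divided by a library factor, the geometric mean over 17 of 20 housekeeping genes (those averaging at least 20 counts) relative to all libraries, from 0.289 to 4.27. Hemispheres were compared over 193 genes with edgeR 4.0.16 in R 4.3.3 (glmQLFit, glmQLFTest), two-sided, Benjamini-Hochberg adjusted, animal as a block. The SE is the log2 fold change over the root of F. Ratios, spreads and shares used exact sign-flip tests over 1024 sign patterns, whose smallest p is 0.00195, with log2(scaled count + 1). Their p-values were adjusted over the 6 ratios or, for spreads and shares, over the 193 genes in place of the 4 first planned. DESeq2 1.42.0 and limma 3.58.1 served as alternatives. The block follows the titles, which give 1 sample of each hemisphere the same animal number. Residuals of an animal's libraries correlated from -0.21 to 0.50. Libraries of a group differed by more than sampling noise (chi-square per degree of freedom from 2.22). Scripts were tested on simulated data. The members and lists were chosen with earlier results of these data known. Named are the 4 genes, the 3 nearest genes of each, tested pathway genes and those under the minimum, apart from some genes that are not reported here.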

Additional observations from a re-analysis of the deposited data

Results flagged for a closer look

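Groups of 10 libraries were checked for a lone extreme value, by its gap to the nearest other library as a part of the group's log2 range. Of 24 groups examined for the 4 genes, their hemisphere differences and their ratios, 2 held such a value, where chance gives about 1 in 20 (1.2 of 24). Both lie in the contralateral library of animal 6. Its Abca1 was 463 scaled counts, where the group's median was 325 (a gap of 0.552). Its ratio of Clu to Abca1 counts was 19.2 against a median of 27.5 (gap 0.499).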

How the results depend on the processing

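The counts rest on 10 animals of mixed, unlabelled treatment, on 1 lane set per hemisphere and on mouse probes, and counting error makes up 33.3% and 38.3% of the squared coefficient of variation of Abcg1 (ipsilateral and contralateral), against at most 12.3% for the other genes. Of 94 tested values recomputed under settings other than leaving out an animal, 78 kept their direction and their side of the threshold. In this tally the calls on spreads and shares that served as the reference used p adjusted over the 4 genes. The count of called genes stayed within 1.5 times its value in 12 of 13 settings. Without the animal block the 4 genes kept their calls, with log2 fold changes of 1.11 for Apoe, 0.96 for Clu, 1.37 for Abca1 and 0.23 for Abcg1 (edgeR adjusted p from 0.000357 to 0.0241), and unpaired tests of the ratios changed no call. Background subtraction, minimum counts of 10 and 50, DESeq2 and limma changed none either. Scaling to positive controls gave 0.11 for Apoe, -0.080 for Clu, 0.27 for Abca1 and -0.67 for Abcg1, and 9 genes called in all against 111. This scaling leaves differences in RNA input in place by construction and also carries the 0.55 log2 offset of the positive controls between hemispheres. Abcg1 stood at -0.051 under TMM, -0.085 with DESeq2's size factors, -0.22 with median centring, 0.12 with all 20 housekeeping genes and 0.23 with no minimum (edgeR adjusted p = 0.127, over 750 genes). Among called genes, those higher made up 82.0% after housekeeping scaling, 55.2% with TMM, 36.0% with median centring and 33.3% with positive controls. The log2 ratio of the SDs, ipsilateral over contralateral, was 0.84 for Apoe under TMM, and with median centring 0.39 for Apoe, 1.55 for Clu and 2.17 for Abca1. The thresholds for spreads and shares were first set on p adjusted over the 4 genes. Adjusting over all 193 tested genes, chosen after seeing the data, ended the calls on the spread of Apoe, Clu and Abca1 (log2 ratios of 1.07, 2.16 and 2.00) and kept those on the shares. The cause of these changes was not tested.

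With 1 animal left out, 141 of 180 tested values kept their direction and call, and 84 to 125 genes were called. The log2 fold change of Abcg1 ran from 0.18 to 0.26. Differences between genes ran from 0.12 to 0.24 (Apoe and Clu), -0.20 to -0.13 (Apoe and Abca1), 0.66 to 0.94 (Apoe and Abcg1), 0.48 to 0.70 (Clu and Abcg1) and 0.82 to 1.09 (Abca1 and Abcg1). Log2 ratios of SDs ran from 0.76 to 1.42 for Apoe, 1.74 to 2.76 for Abca1 and -0.19 to 0.52 for Abcg1, whose sign turned without animal 4 (-0.19), 5 (-0.077) or 12 (-0.053).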
